A study of Mus musculus with 33 samples.

Results

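P19 cells are a mouse embryonal carcinoma line that forms neurons when aggregated with retinoic acid. RNA from P19 cells 6 days into that treatment (D6RA, 3 libraries) was compared with RNA from untreated, undifferentiated P19 cells (D0, 3 libraries). These 6 libraries were taken by their labels from 33 samples in all, 15 of them RNA libraries. The D6RA cells were grown as embryoid bodies for 2 days in bacteriological dishes with 1 µM all-trans retinoic acid, then moved to culture flasks with maintenance medium. The D0 cells had neither retinoic acid nor DMSO by their labels. Values of the day 3 retinoic acid group (D3RA) and of the day 6 group treated with 1% DMSO (D6DMSO), 3 libraries each, are set beside the results. By their labels both groups were also grown as embryoid bodies for 2 days, D3RA with 1 µM retinoic acid and D6DMSO with DMSO instead. The labels name no engineered allele, and all groups came from the same line, so the replicates are samples of 1 cell line.

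All-trans retinoic acid enters cells, is carried by cellular binding proteins, and binds nuclear receptors of the RAR family that pair with RXR receptors on DNA. Among its best known targets are the receptor gene Rarb, the Cyp26 enzymes that break retinoic acid down, and Hox genes, which set position along the body axis. In the embryo it patterns the hindbrain and spinal cord, and in aggregated P19 cells it is used to obtain neural progenitors and then neurons.

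The D0 libraries held 7129180 to 9878744 counts and the D6RA libraries 38242453 to 49644316. Mitochondrial genes took 41.6% to 42.6% of counts in D6RA and had 0 counts in every D0 library, so they were left out, which left 21942157 to 28651221 counts per D6RA library. In D0, 4 abundant entries (Lars2 and 3 others) took 8.86% to 23.2% of the remaining counts, with D0 replicate 2 the highest, against 0.528% to 1.70% in D6RA. The labels name no sequencing batch, so day and set of libraries cannot be told apart for D0 and D6RA. The D3RA libraries, like those of D0, had 0 mitochondrial counts, so the same holds for D3RA and D6RA. The D6DMSO libraries resemble D6RA in these features, with 38965729 to 44520429 counts and 49.8% to 55.8% mitochondrial, which is why their values are given too. Levels below (CPM) are recovered counts per 1000000 of a scaled library size and not of the counts just given. The size ratios are those of the deposited values, set so that their geometric mean equals that of the non-mitochondrial counts, and the sizes ran from 2189364 in D3RA replicate 3 to 31940815 in D6RA replicate 3. CPM compare libraries for 1 gene, not genes of different length. Fold changes are on the log2 scale of the deposited values, with limma standard errors (SE) and Benjamini-Hochberg adjusted p-values.

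Of 14706 genes tested, 79.9% were called at an adjusted p under 0.05 in limma, 6118 higher in D6RA (41.6%) and 5636 lower (38.3%). At least 2-fold differences were called in 3720 genes higher (25.3%) and 2903 lower (19.7%). The median difference over all genes was 0.05 on the log2 scale and the median size without sign was 0.89. A change of 8-fold or more was called in 993 genes higher and 620 lower. Without D0 replicate 2 the counts were 5925 higher and 5375 lower. With most genes called, a member's call alone says little, and the lists below are read by their size of change and by their counts against these shares. Under quantile normalization, which shifts the median of all genes by -0.18, higher calls were 45.0% of all calls, against 52.1% here.

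**Figure D1:**
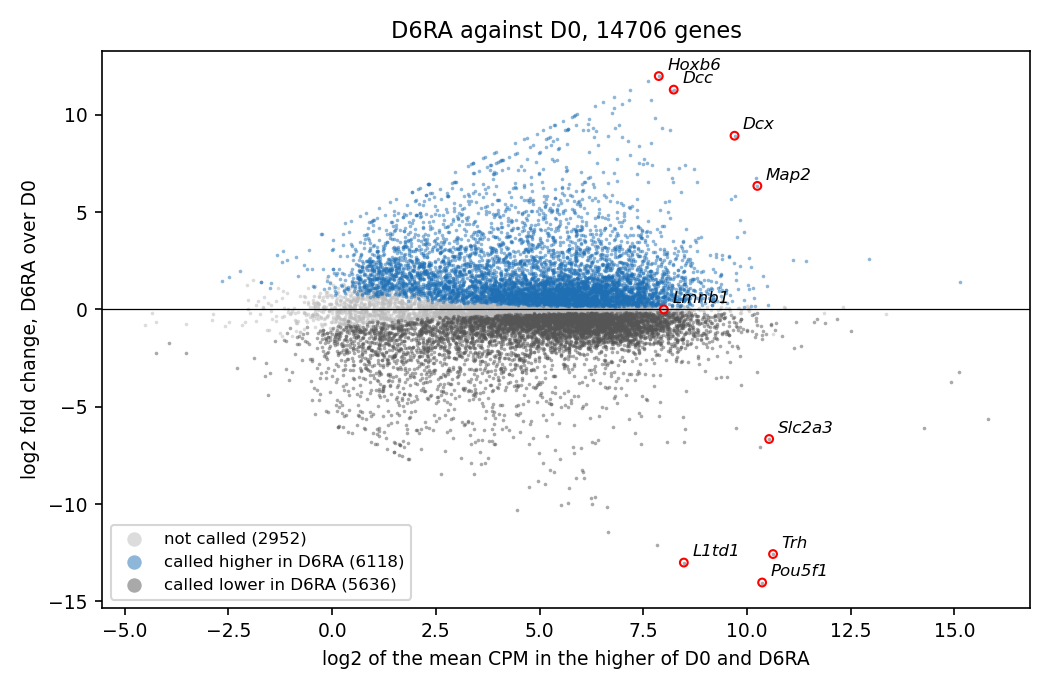
Each point is 1 of 14706 genes, with the log2 of its mean CPM in the higher group on the horizontal axis and the log2 fold change of D6RA over D0 on the vertical axis. Blue points are the 6118 genes called higher, dark grey the 5636 called lower and light grey the 2952 not called. Hoxb6, at 11.99, and Pou5f1, at -14.03, lie at the upper and lower ends of the marked genes.

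The 4 marker genes of the comparison all changed, the neural ones upward. Tubb3, the neuronal beta-tubulin, stood at 117, 121 and 99.1 CPM in D0 and at 676, 679 and 677 CPM in D6RA (log2 fold change 2.6, SE 0.09, adjusted p = 2.51e-13). Dcx, a microtubule protein of migrating young neurons, stood at 1.54, 2.2 and 1.32 CPM in D0 and at 887, 804 and 802 CPM in D6RA, a 492-fold difference of means. Fabp7, a fatty acid binding protein of radial glia, went from 2.46, 3.93 and 2.17 CPM to 426, 415 and 424 CPM (log2 fold change 7.23, SE 0.23, adjusted p = 4.68e-14). In all 3 genes every D6RA library lay above every D0 library, with D3RA in between. The groups did not overlap in 86.5% of all genes. Pou5f1, the transcription factor Oct4 that maintains pluripotency, fell from 1403, 1339 and 1210 CPM to 0.0993, 0.246 and 0 CPM, which is 34996 counts in the D0 group against 9 in D6RA (log2 fold change -14.03, SE 0.83, adjusted p = 9.81e-11). At day 6 in DMSO the same 4 genes stood at 6.67 ± 0.625, 0.603 ± 0.260, 0.418 ± 0.154 and 47.0 ± 5.98 CPM (SD, n = 3), in the order given. In these bulk libraries, fewer cells of a type and less RNA per cell cannot be told apart.

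**Figure D2:**
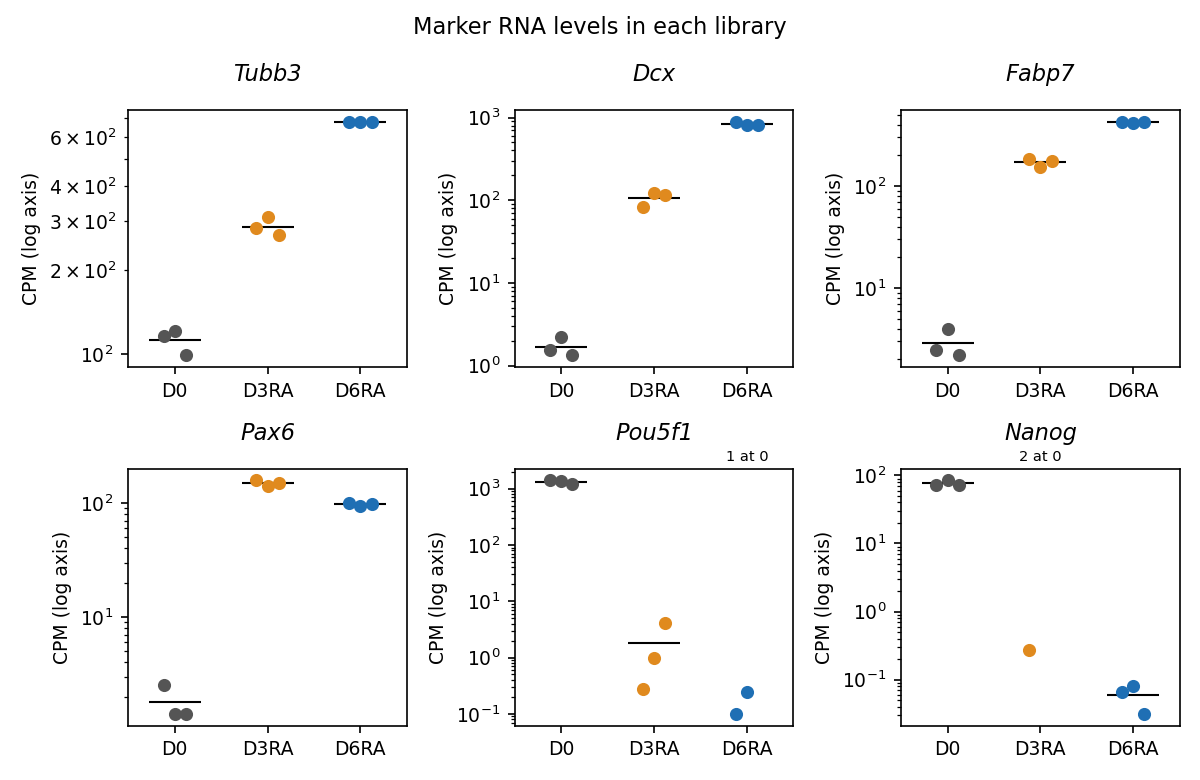
Level of 6 genes in each library of D0, D3RA and D6RA, in CPM on a log axis, with a line at the group mean; libraries at 0 cannot be drawn and are counted above the group. Tubb3, Dcx and Fabp7 step upward to D6RA, Pax6 is highest at D3RA, and Pou5f1 and Nanog drop at D3RA.

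Summed levels of wider marker sets moved the same way, but the sets include the 4 genes above and are not separate from them. Tubb3, Dcx and Fabp7 averaged 677, 831 and 422 CPM of the D6RA sums, and Pou5f1 1317 CPM of the D0 sum. The 7 neuron markers summed to 314 to 349 CPM in D0, 820 to 1038 CPM in D3RA and 3239 to 3463 CPM in D6RA, and 6 of them rose. The exception was Stmn2, a growth cone tubulin regulator, at 168, 180 and 166 CPM in D0 and 198, 193 and 190 CPM in D6RA, which was not called (adjusted p = 0.162). Stmn2 was lower at D3RA, at 65.5 to 87.3 CPM. Neural progenitor markers, 4 of 5 measured, summed to 171 to 201 CPM in D0 and 1017 to 1037 CPM in D6RA. The 5 markers of undifferentiated P19 cells summed to 1891 to 2188 CPM in D0, 0.911 to 7.31 CPM in D3RA and 0.188 to 0.492 CPM in D6RA.

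The genes with the highest fold changes, by a rule that asked for 10 CPM or more and no overlap of the groups, were Hox genes, Msx3 and Dcc. Hoxb6 had 0 counts in all 3 D0 libraries and 230, 243 and 230 CPM in D6RA, at least 2084-fold higher against a floor of 3 counts over the D0 group. Msx3, a homeobox gene of the dorsal neural tube, also had 0 counts in D0 and stood at 183, 212 and 192 CPM in D6RA, at least 1740-fold higher. It was near absent at day 6 in DMSO, at 0.158 ± 0.154 CPM (SD, n = 3). Dcc, the netrin receptor of commissural axons, had 2 counts in D0 and 306, 308 and 288 CPM in D6RA. The ratio was 4003, and counting error alone gives it a 95% interval of 1108 to 33056. Of all 14706 genes, 51 had 0 counts in the D0 group and 21 in the D6RA group.

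At the other end stood Pou5f1, L1td1, Trh, Tdgf1, Vrtn and Trap1a. Trh, the gene of thyrotropin-releasing hormone, fell from 1687, 1610 and 1445 CPM to 0.364, 0.246 and 0.157 CPM (log2 fold change -12.57, SE 0.44, adjusted p = 1.49e-13). L1td1, an RNA-binding protein derived from a LINE-1 element, fell from 379, 382 and 308 CPM to 3 counts in the D6RA group. Trap1a, an X-linked tumour rejection antigen, had 23.9, 23.4 and 18.7 CPM in D0 and 0 counts in D6RA, at least 635-fold lower. These genes were already low at D3RA, where Trh was at 1.46, 1.30 and 6.85 CPM and Trap1a at 0 counts.

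Of 26 pluripotency genes measured, 23 fell, 3 were not called and 0 rose, with a median log2 fold change of -7.30 (-6.60 with genes at 0 counts set to their bound). For comparison, 38.3% of all genes fell. Nanog, a core pluripotency factor, stood at 73.1, 84.6 and 72.4 CPM in D0 and at 0.0662, 0.0819 and 0.0313 CPM in D6RA. Tdgf1, the Nodal co-receptor Cripto, fell from 231, 242 and 205 CPM to 4 counts in the D6RA group. Its ligand Nodal and the antagonists Lefty1 and Lefty2 fell too, with log2 fold changes of -8.37, -9.69 and -7.67. Dnmt3b, a de novo DNA methyltransferase, fell from 1288, 1271 and 1261 CPM to 9.04, 9.75 and 9.52 CPM. The RNA-binding protein Lin28a fell from 876, 861 and 802 CPM to 14.3, 10.4 and 12.3 CPM. Its paralog Lin28b fell by less, from 158 to 44.1 CPM on average.

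The 3 pluripotency genes not called were Sox2, Esrrb and Klf5. Sox2, which serves both pluripotent cells and neural progenitors, stood at 253, 225 and 205 CPM in D0 and 175, 192 and 196 CPM in D6RA. Its log2 difference was -0.28 with a 95% interval of -0.62 to 0.07 (adjusted p = 0.130), and no D6RA library reached the D0 range. With the D0 and D6RA libraries fitted alone the call was made, at an adjusted p of 0.00754. The median of the pluripotency genes was -4.23 for D6RA against D6DMSO, so they were lower than in the same-day group as well.

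Of 21 measured genes of retinoic acid handling and response, 14 rose, 5 fell and 2 were not called, with a median log2 fold change of 2.2. The median of D6DMSO over D0 was 1.82, and that of D6RA against D6DMSO was -0.11. As a list, these genes were thus not higher than in the same-day group. Rarb and Nr2f2 stood at 39.7 ± 2.79 and 56.6 ± 5.41 CPM in D6DMSO (SD, n = 3). The receptor gene Rarb rose from 2.97, 1.89 and 2.74 CPM to 120, 117 and 110 CPM (log2 fold change 5.50, SE 0.14, adjusted p = 5.22e-15). It had been higher at D3RA, at 273, 273 and 244 CPM. Rarg, another RAR gene, fell from 24.4, 22.2 and 23.8 CPM to 1.36, 1.93 and 1.53 CPM. Rara and Rxra rose by less, with log2 fold changes of 1.07 and 1.33, and Rxrb was not called, at -0.04. The orphan receptors Nr2f1 and Nr2f2, also called COUP-TFs, had 3 and 5 counts in D0 and 107 to 115 CPM and 39.0 to 40.3 CPM in D6RA.

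The retinoic acid degrading enzymes parted. Cyp26a1 was at 3.49, 3.30 and 5.11 CPM in D0, at 18.2, 11.4 and 10.0 CPM in D3RA, and at 0.132, 0.0819 and 0.0626 CPM in D6RA (log2 fold change -5.22, SE 0.25, adjusted p = 8.18e-12). Cyp26a1 at day 6 in DMSO was 18.4 ± 0.568 CPM (SD, n = 3). Cyp26b1 was at 0.103 to 0.378 CPM in D0, reached 149, 150 and 205 CPM in D3RA, and was back to 9.0, 8.97 and 8.23 CPM in D6RA, still a 33.0-fold rise over D0. The binding protein gene Crabp2 likewise stood at 24.3 CPM in D0, 917 CPM in D3RA and 127 CPM in D6RA on average. Meis1 and Meis2, homeobox partners of Hox proteins, rose to 363 and 292 CPM from 2.11 and 2.65 CPM. Stra6, the retinol receptor, was not called, with 1.38 CPM in D0 and 1.42 CPM in D6RA, after 9.0 CPM in D3RA.

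Promoter windows were searched on both strands for the DR5 and DR2 types of retinoic acid response element, which are direct repeats bound by RAR and RXR. The windows come from RefSeq (build GRCm38.p6), run from 250 bases before to 50 bases after the annotated gene start, and existed for 17 of the 21 retinoic acid genes. A DR5 element was found in 2 of these 17, Rarb and Cyp26a1, against 31 of 27025 promoter windows in all (0.115%). Of the genes tested that had a window, 4 of 10355 held a DR5 element. It was found in 2 of 2613 genes called at least 2-fold higher and in 2 of 1880 called at least 2-fold lower. The list was written from general knowledge of retinoic acid genes, so its share is a description and not a test. A DR2 element was found in 0 of the 17 and in 84 of all windows (0.311%). None of the 8 windows of Hox paralogs 1 to 5 or the 6 windows of Hox paralogs 6 to 13 held either. The 250 bases before the start of both genes are shown because these targets ended on opposite sides of their D0 level. Capitals mark the DR5 element, at -53 to -37 in Rarb and at -32 to -16, on the opposite strand, in Cyp26a1. Both are written 5′ to 3′ in the direction of the gene, which is the minus strand of chr14:16575477-16575726 for Rarb and the plus strand of chr19:37697558-37697807 for Cyp26a1.
Rarb: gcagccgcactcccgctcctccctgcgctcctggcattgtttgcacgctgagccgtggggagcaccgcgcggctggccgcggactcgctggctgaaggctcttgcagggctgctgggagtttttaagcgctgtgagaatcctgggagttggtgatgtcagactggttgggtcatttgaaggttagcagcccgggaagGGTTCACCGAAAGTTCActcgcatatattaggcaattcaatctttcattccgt
Cyp26a1: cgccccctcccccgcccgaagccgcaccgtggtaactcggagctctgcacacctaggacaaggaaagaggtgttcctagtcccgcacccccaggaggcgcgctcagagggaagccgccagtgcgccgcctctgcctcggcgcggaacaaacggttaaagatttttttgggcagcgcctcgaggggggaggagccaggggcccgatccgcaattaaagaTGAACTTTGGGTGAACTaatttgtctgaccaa
A match of letters is a description and not a measured binding site.

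All 14 measured Hox genes of paralog groups 1 to 5 rose, as did 9 of 10 of paralog groups 6 to 13, against 41.6% of all genes. The median log2 fold changes were 9.42 and 9.10, or 8.96 and 8.38 with genes at 0 counts set to their bound. In D0, 6 genes of each set had 0 counts in all 3 libraries and none reached 10 CPM. In D6RA, 12 of the 14 and 6 of the 10 did. Hoxb4 had 1 count in D0 and 124, 130 and 127 CPM in D6RA, a 3380-fold ratio (95% interval from counting error, 606 to 133510). Hoxb5 and Hoxa5 had 0 counts in D0 and 140, 142 and 151 CPM and 108, 115 and 110 CPM in D6RA. Hoxb9 rose at both steps, from 2 counts in D0 to 46.5, 57.7 and 57.6 CPM in D3RA and 292, 314 and 259 CPM in D6RA. The log2 fold change was 8.81 from D0 to D3RA and 2.42 from D3RA to D6RA. In D6DMSO it stood at 95.4 ± 14.2 CPM (SD, n = 3).

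Not every Hox gene was highest at day 6. Hoxd1 averaged 0.250 CPM in D0, 7.27 CPM in D3RA and 1.85 CPM in D6RA. Hoxd9 was not called, with 4 counts in D0 and 9 in D6RA (adjusted p = 0.759), and stood at 17.4 ± 1.46 CPM (SD, n = 3) at day 6 in DMSO. Against that same-day group the median log2 fold change was 1.85 for paralogs 1 to 5 and 1.24 for paralogs 6 to 13. The D6DMSO medians over D0 were themselves 7.82 and 7.31. Hox clusters hold overlapping transcripts on both strands, and whether the counting used strand is not given in the sources used here, so reads of neighbours may be shared.

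Among 24 neural progenitor genes measured, 17 rose, 3 fell and 4 were not called (median log2 fold change 3.56). Pax3, a dorsal neural tube factor, rose from 0.205, 0.157 and 0.189 CPM to 215, 223 and 218 CPM, a 1188-fold difference of means. Pou3f3, a neural POU factor, rose from 5 counts in D0 to 115, 126 and 123 CPM. Pax6, a factor of neural progenitors and eye, rose from 2.56, 1.42 and 1.42 CPM to 101, 94.5 and 98.1 CPM, down from 157, 141 and 148 CPM at D3RA (D6RA against D3RA log2 -0.61, adjusted p = 0.0358, where 69.2% of all genes were called). Nes, the progenitor intermediate filament nestin, rose from 196, 175 and 167 CPM to 467, 467 and 473 CPM and was already at 462 to 496 CPM at D3RA. The Notch ligand Dll1 and the receptor Notch1 rose to 279 and 372 CPM from 5.95 and 21.5 CPM, and the Notch target Hes5 from 2 counts to 38.2, 40.9 and 41.3 CPM. Hes1, another Notch target, was not called, at 36.8 CPM in D0 and 33.7 CPM in D6RA.

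The progenitor genes that fell were Nkx6-1, Slc1a3 and Zic2. Nkx6-1, a ventral neural tube factor, went from 2.36, 2.99 and 3.78 CPM to 0.0993, 0.246 and 0.125 CPM (log2 fold change -4.22, SE 0.46, adjusted p = 2.45e-07). Slc1a3, the glutamate transporter GLAST of radial glia and astrocytes, fell from 100, 109 and 108 CPM to 17.2, 16.7 and 15.8 CPM. Zic2 averaged 52.3 CPM in D0 and 15.3 CPM in D6RA, while its relative Zic1 rose from 34.8 to 337 CPM.

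Of 23 neurogenic transcription factors measured, 22 rose and 1 fell (median log2 fold change 6.52). Nhlh2, a helix-loop-helix factor of newborn neurons, had 0 counts in D0 and 85.4, 76.7 and 82.1 CPM in D6RA, at least 724-fold higher. St18 had 1 count in D0 and 54.2, 50.3 and 46.2 CPM in D6RA. Both were already high at D3RA, at 69.1 to 91.9 CPM and 37.6 to 66.1 CPM. Others had a higher mean at D6RA than at D3RA. The zinc finger factor Myt1 averaged 0.509 CPM in D0, 43.3 CPM in D3RA and 284 CPM in D6RA, and Lhx1 0.864, 25.1 and 168 CPM. The sensory neuron factor Pou4f1 averaged 0.0315, 3.04 and 27.3 CPM. Neurog1 and Neurod1 had their higher mean at D3RA, at 25.4 and 11.5 CPM against 7.81 and 6.12 CPM in D6RA. The gene that fell was Phox2a, a factor of autonomic and some cranial motor neurons, from 3.69, 5.82 and 4.63 CPM to 0.695, 0.779 and 0.783 CPM.

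Of 24 genes of the neuronal cytoskeleton, 21 rose, 2 fell and 1 was not called (median log2 fold change 2.68). Mapt, the axonal protein tau, rose from 0.923, 1.26 and 1.32 CPM to 217, 209 and 203 CPM, with 13.4 to 18.3 CPM at D3RA. Map2, the dendritic microtubule protein, rose from 12.8, 15.6 and 16.5 CPM to 1291, 1192 and 1166 CPM (log2 fold change 6.35, SE 0.14, adjusted p = 1.24e-15) and stood at 3.86 ± 0.335 CPM (SD, n = 3) at day 6 in DMSO. The genes that fell encode filament proteins of mature large or peripheral neurons. Nefh, the heavy neurofilament, was at 9.13, 5.98 and 8.79 CPM in D0 and 3.21, 4.02 and 3.82 CPM in D6RA (adjusted p = 0.00294), and Prph, peripherin, at 3.40 to 3.93 CPM and 1.64 to 2.29 CPM (adjusted p = 0.0122). Both calls were lost when all libraries were thinned to the depth of the smallest. The tubulin genes have near-identical relatives, so their separate levels are less certain.

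Of 37 synaptic and neurotransmitter genes, 34 rose, 1 fell and 2 were not called (median log2 fold change 3.83). Gria2, an AMPA glutamate receptor subunit, rose from 2 counts in D0 to 73.3, 71.6 and 70.8 CPM. Gad1, which makes GABA, rose from 3 counts to 44.0, 47.3 and 42.2 CPM, and Slc32a1, which loads GABA and glycine into vesicles, from 1 count to 14.9, 18.1 and 15.2 CPM. Slc17a6, the vesicular glutamate transporter, rose from 0.718, 1.26 and 1.04 CPM to 30.2, 36.8 and 28.2 CPM and was not above D0 at D3RA, at 0.273 to 0.977 CPM. Chrna3, a nicotinic receptor subunit of peripheral and some central neurons, had 0 counts in D0 and 22.4, 21.8 and 19.7 CPM in D6RA, at least 190-fold higher. Genes of inhibitory and of excitatory transmission thus both rose. The fall was in Slc5a7, the choline transporter of cholinergic neurons, from 2.87, 2.36 and 3.88 CPM to 0.166, 0.246 and 0.250 CPM. Snap25, a release machinery protein, rose from 2.56, 3.46 and 3.31 CPM to 60.5, 52.9 and 54.4 CPM.

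Of 17 neuronal ion channel genes, 14 rose, 1 fell and 2 were not called (median log2 fold change 2.82). The calcium channel Cacna1e rose from 1 count to 10.5, 11 and 10.2 CPM and the potassium channel Kcnc1 from 3 counts to 12.2, 12.2 and 13 CPM. The sodium channels Scn2a, Scn3a and Scn8a averaged 44.1, 173 and 94.2 CPM in D6RA against 1.40, 11.6 and 13.3 CPM in D0. Kcnj3, a G-protein gated potassium channel, fell from 112, 111 and 111 CPM to 4.70, 4.96 and 4.70 CPM (log2 fold change -4.54, SE 0.18, adjusted p = 6.76e-13).

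Of 20 genes of the neural splicing and RNA-binding switch, 15 rose, 3 fell and 2 were not called (median log2 fold change 3.07). Srrm4, which drives inclusion of neural microexons, rose from 1.03, 0.629 and 0.756 CPM to 105, 118 and 112 CPM. Rbfox1 rose from 0.205, 0.786 and 0.473 CPM to 66.5, 64.8 and 61.4 CPM. Rest, a repressor of neuronal genes outside neurons, fell from 323, 309 and 330 CPM to 71.5, 73.7 and 72.7 CPM (log2 fold change -2.14, SE 0.08, adjusted p = 6.48e-13). Ptbp1, a splicing repressor that keeps neural exons out, fell from 431, 467 and 436 CPM to 153, 156 and 160 CPM. Its neural relative Ptbp2 rose by less than 2-fold, from 249, 245 and 240 CPM to 377, 366 and 362 CPM. Esrp1, an epithelial splicing factor, fell from 12.6, 12.6 and 11.3 CPM to 0.0662, 0.123 and 0.125 CPM.

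Of 31 axon guidance and neural adhesion genes, 30 rose and 1 fell (median log2 fold change 3.47). Beside Dcc, the adhesion molecule Chl1 rose from 2 counts in D0 to 212, 207 and 195 CPM, with 1.37 to 4.55 CPM at D3RA. Robo3, which lets commissural axons cross the midline, rose from 0.513, 0.157 and 0.378 CPM to 234, 265 and 238 CPM. The neural adhesion gene Ncam1 rose from 31.9 to 351 CPM on average. Sema3c, a secreted semaphorin, was the gene that fell, from 20.5, 17.9 and 18.2 CPM to 14.6, 13.5 and 14.9 CPM (adjusted p = 0.0140). With D0 replicate 1 or D6RA replicate 2 left out it was no longer called (adjusted p = 0.0589 and 0.0535).

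Genes of neural crest and glia were split, with 7 higher, 5 lower and 2 not called of 14 (median log2 fold change 0.82). Of all genes, 41.6% were called higher and 38.3% lower, so these counts set the list little apart. Tfap2b, a factor of neural crest and of some spinal interneurons, rose from 1 count to 141, 149 and 139 CPM, against 6.28, 6.84 and 3.65 CPM at D3RA. Ednrb, the endothelin receptor, rose from 0.923, 1.10 and 0.946 CPM to 194, 192 and 190 CPM. Foxd3, a factor of pluripotent cells and premigratory crest, fell from 73.6, 63.1 and 56.1 CPM to 0.364, 0.533 and 0.438 CPM, and Erbb3, the neuregulin receptor of crest and Schwann cells, from 13.6, 11.6 and 14.2 CPM to 1.19, 1.11 and 0.845 CPM. The astrocyte filament Gfap was at 0.567 to 1.44 CPM in D0 and 0.438 to 0.463 CPM in D6RA and was not called. The 3 glia markers measured summed to 26.6 to 29.7 CPM in D0 and 8.03 to 8.28 CPM in D6RA. Of the 3, only 1 was called lower and 0 higher.

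Of 16 primitive streak and mesoderm genes, 6 rose, 7 fell and 3 were not called (median log2 fold change -0.25). These counts were near the shares of all genes, 41.6% higher and 38.3% lower. T, the mesoderm factor Brachyury, fell from 3.08, 3.46 and 2.46 CPM to 0.0331, 0.123 and 0.188 CPM, while D6DMSO held 25.4 ± 0.247 CPM (SD, n = 3). Eomes and Fgf8 fell with it, with log2 fold changes of -6.61 and -5.20. The 2 members with the highest rises, Lhx1 and Wnt3, also serve the neural tube, and stood at 168 and 24.6 CPM in D6RA. Tbx6, a factor of paraxial mesoderm, rose instead, from 0.615, 0.786 and 0.756 CPM to 1.82, 2.09 and 1.88 CPM (log2 fold change 1.33, SE 0.32, adjusted p = 0.00120). T and Tbx6, the 2 mesoderm markers measured, summed to 3.21 to 4.25 CPM in D0 and 1.85 to 2.21 CPM in D6RA, and Tbx6 made up nearly all of the D6RA sum. The call of Cdx2 as lower rests on 2 counts in each group, and counting error gives its ratio of 3.24 a 95% interval of 0.235 to 44.7.

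Of 14 heart and skeletal muscle genes, 11 fell and 3 rose (median log2 fold change -3.15). Actc1, cardiac actin, fell from 16.9, 9.91 and 11.7 CPM to 3 counts in the D6RA group, and Des, desmin, from 4.92, 5.82 and 3.69 CPM to 0.0662, 0.0410 and 0.0626 CPM. Gata4, an early heart and endoderm factor, fell from 2.15, 1.42 and 2.17 CPM to 0.0993, 0.0819 and 0.0939 CPM. In D6DMSO these 3 genes stood at 62.6 ± 6.30, 28 ± 5.50 and 18.3 ± 4.42 CPM (SD, n = 3). The rises were in Ryr2, Isl1 and Mef2c, which neurons also use. The 2 highest of these rises, Isl1 and Ryr2, averaged 3.72 and 10.6 CPM in D6RA. Both were higher in D6DMSO, at 10.7 and 53.6 CPM on average. Whether neurons account for the 3 rises was not tested. The 3 cardiac markers measured summed to 5.66 to 5.77 CPM in D0 and 0.530 to 0.615 CPM in D6RA.

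Of 13 endoderm genes, 10 fell and 3 rose (median log2 fold change -1.83). The rises were in Lama1, a laminin chain, from 12.9, 12.4 and 16.5 CPM to 182, 165 and 187 CPM, in the chemokine receptor Cxcr4, from 12.2, 12.9 and 11.5 CPM to 119, 124 and 122 CPM, and in Sox17. Sox17, the 1 endoderm marker measured of 3, stood at 0.308 to 0.567 CPM in D0, 8.14 to 11.6 CPM in D3RA and 0.657 to 1.23 CPM in D6RA. The keratins Krt18 and Krt8 fell from 31.1, 27.2 and 24.0 CPM to 0.397, 0.574 and 0.376 CPM and from 19, 14.8 and 14.7 CPM to 0.430, 0.451 and 0.250 CPM. Of the 14 epithelial genes 13 fell and 0 rose (median -5.71). Cdh1, E-cadherin, fell from 81.2, 68.7 and 93.6 CPM to 0.861, 0.574 and 0.595 CPM and the tight junction gene Cldn6 from 35.1, 36.3 and 33.7 CPM to 5 counts in D6RA. Cdh2, N-cadherin, of the axon guidance and adhesion list, rose from 75.6 to 362 CPM.

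Of 14 endothelial and blood genes, 9 rose and 5 fell (median log2 fold change 2.12), but their levels were low, with 1 of the 14 at 10 CPM or more in D6RA, and all 14 had higher means at D3RA than at D6RA. Cdh5, the endothelial cadherin, rose from 3 counts in D0 through 33.5, 30.3 and 42.5 CPM in D3RA to 4.80, 6.88 and 5.17 CPM in D6RA. Emcn had 1 count in D0, 15.3 to 23.8 CPM in D3RA and 1.41 to 2.5 CPM in D6RA. Etv2, which starts the blood and endothelial program, fell from 3.59, 3.15 and 2.55 CPM to 1 count, and the receptor Tek from 10.6, 9.12 and 10.2 CPM to 0.695, 0.779 and 0.720 CPM. The 3 endothelial markers summed to 10.9 to 11.6 CPM in D0, 73.0 to 95.9 CPM in D3RA and 9.96 to 13.4 CPM in D6RA.

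Of 17 mesenchymal and smooth muscle genes, 6 rose, 9 fell and 2 were not called (median log2 fold change -1.52). Acta2, smooth muscle actin, fell from 64.7, 39.2 and 50.1 CPM to 1.22, 1.88 and 1.60 CPM, and Cnn1, calponin, from 24.7, 24.5 and 20.5 CPM to 0.430, 0.697 and 0.564 CPM. Zeb1, a repressor of epithelial genes, rose from 37.5, 43.9 and 41.1 CPM to 208, 209 and 202 CPM. The 3 mesenchyme markers summed to 45.3 to 75.3 CPM in D0 and 6.32 to 8.03 CPM in D6RA. The part of other cell types in the neural results was not tested.

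**Figure D3:**
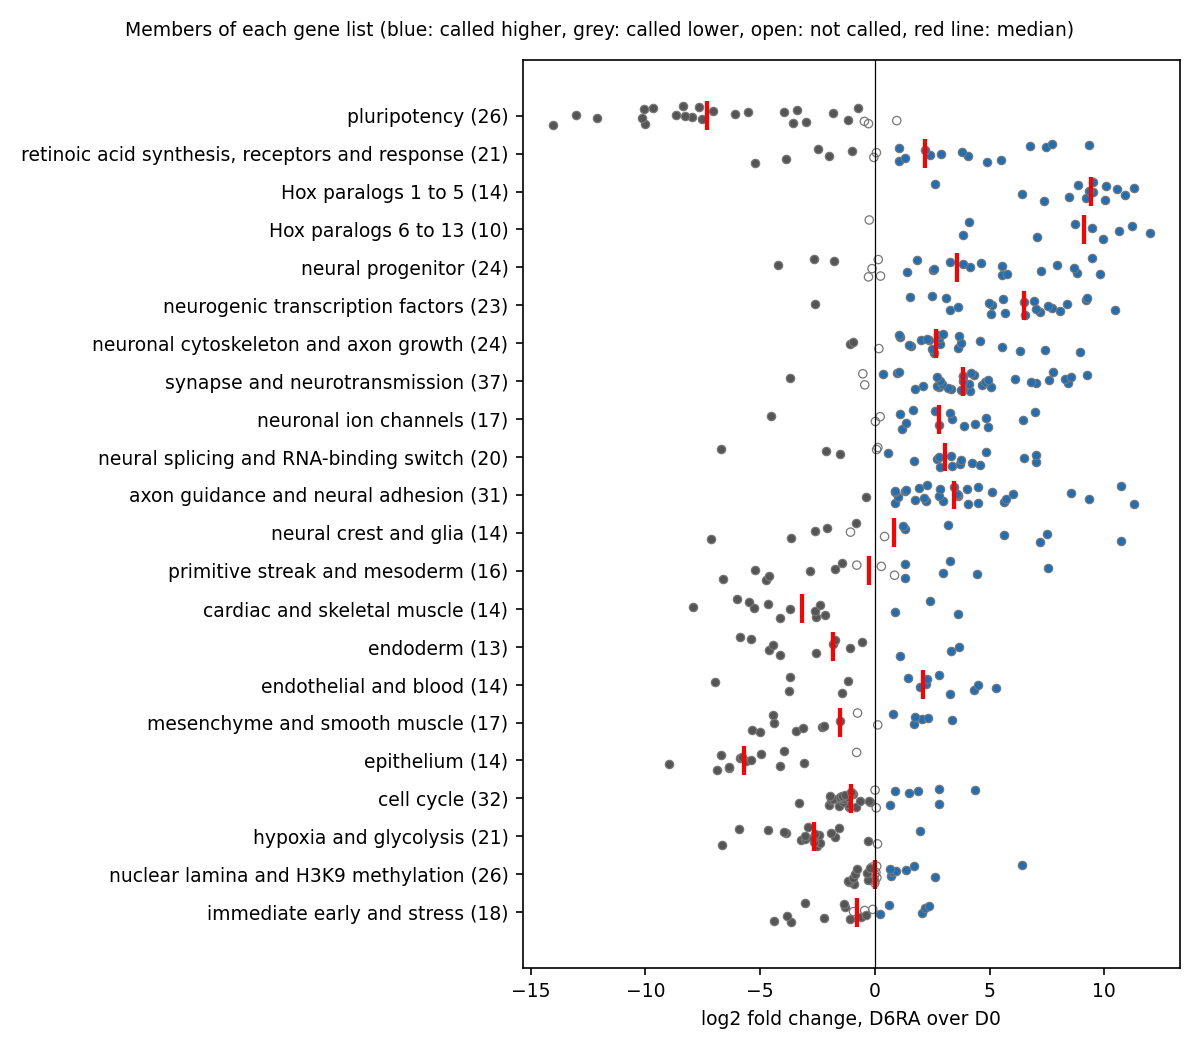
Log2 fold change of D6RA over D0 for every measured member of 22 gene lists, with the number measured in brackets; blue points were called higher, dark grey called lower, open points not called, and the red line is the list's median. The medians of both Hox lists and of the neuronal lists lie to the right of 0, though single members lie to the left. The medians of pluripotency (-7.30) and epithelium (-5.71) lie to the left.

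Of 32 cell cycle genes, 23 fell, 7 rose and 2 were not called (median log2 fold change -1.02). Ccne1, cyclin E1 of the G1 to S transition, fell from 159, 137 and 134 CPM to 13.6, 14.5 and 14.7 CPM (log2 fold change -3.32, SE 0.08, adjusted p = 2.61e-15). Ccnb2, a mitotic cyclin, fell from 126, 130 and 120 CPM to 29.0, 33.2 and 30.6 CPM. Mki67, the proliferation antigen Ki-67, was not called, at 658, 667 and 756 CPM in D0 and 729, 727 and 712 CPM in D6RA, with a log2 difference of 0.06 and a 95% interval of -0.19 to 0.32. The replication helicase genes Mcm2 to Mcm7 all fell, with log2 fold changes between -0.99 and -1.94. The rises included Ccnd2, cyclin D2, from 73.5, 70.0 and 94.0 CPM to 543, 550 and 550 CPM. The inhibitor Cdkn2c rose from 7 counts to 6.09, 6.27 and 6.67 CPM, and the antiproliferative gene Btg2 from 17.9 to 123 CPM.

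Of 21 genes of glycolysis and the hypoxia response, 19 fell, 1 rose and 1 was not called (median log2 fold change -2.65). Slc2a3, the glucose transporter GLUT3, fell from 1344, 1602 and 1497 CPM to 14, 16.4 and 13.6 CPM (log2 fold change -6.66, SE 0.10, adjusted p = 2.78e-17). Ldha, lactate dehydrogenase A, fell from 845, 1066 and 876 CPM to 56.2, 76.2 and 56.6 CPM, and Pkm, pyruvate kinase, from 2474, 2783 and 2309 CPM to 661, 687 and 672 CPM. Adm, adrenomedullin, fell from 5.95, 10.7 and 10.5 CPM to 0.0662, 0.451 and 0.0626 CPM. The rise was in Vegfa, from 26.1, 34.0 and 33.9 CPM to 116, 124 and 125 CPM. At day 6 in DMSO Slc2a3 and Ldha stood at 509 ± 32.2 and 214 ± 23.0 CPM (SD, n = 3), between the D0 and D6RA levels. Gapdh, Eno1 and Pgk1 have many near-identical pseudogenes, so their low counts are uncertain.

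The study's subject was chromatin at the nuclear periphery, marked by H3K9me2, and 26 genes of the lamina and of H3K9 methylation were followed for that reason. They were evenly split, with 8 higher, 9 lower and 9 not called, and a median log2 fold change of -0.0033. All genes were split as well, with 41.6% called higher and 38.3% lower. Lmnb1, lamin B1, stood at 260, 250 and 255 CPM in D0 and 246, 266 and 252 CPM in D6RA, with a 95% interval of -0.18 to 0.18 for the log2 difference (adjusted p = 0.981), after 161 to 218 CPM at D3RA. Lmnb2 fell from 95.1, 85.7 and 91.3 CPM to 40.8, 43.7 and 40.2 CPM, and Lbr, the lamin B receptor that tethers heterochromatin, from 306, 269 and 279 CPM to 122, 126 and 129 CPM. Lmna, the gene of lamins A and C, fell from 14.7, 8.49 and 13.2 CPM to 5.79, 7.09 and 6.32 CPM (log2 fold change -0.89, SE 0.22, adjusted p = 0.00124).

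Of the H3K9me2 methyltransferases, Ehmt1 (GLP) rose from 141, 143 and 144 CPM to 235, 230 and 226 CPM and Ehmt2 (G9a) was not called, at 194, 198 and 178 CPM against 161, 182 and 169 CPM. Sun2, which links the lamina to the cytoskeleton, rose from 9.74, 9.91 and 8.89 CPM to 56.9, 61.5 and 59.1 CPM. Prdm16, a PR-domain factor also expressed in neural progenitors, rose from 0.205, 0.315 and 0.284 CPM to 26.9, 27.5 and 28.6 CPM.

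Of 18 immediate early and stress genes, 10 fell, 5 rose and 3 were not called (median log2 fold change -0.77). Fosb fell from 26.9, 38.4 and 32.1 CPM to 1.29, 1.48 and 1.75 CPM and Egr2 from 3.49, 4.72 and 4.16 CPM to 0.530, 0.205 and 0.188 CPM. Trib3 and Gadd45a, induced in amino acid and DNA damage stress, rose from 6.26, 4.72 and 7.09 CPM to 30.8, 30.7 and 29.6 CPM and from 3.90, 3.77 and 5.01 CPM to 19, 18.2 and 20.0 CPM. Trib3 was higher at day 6 in DMSO, at 99.7 ± 8.60 CPM (SD, n = 3).

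Some genes moved at day 3 and were back near the D0 level at day 6. The rule asked for a called change of at least 2-fold from D0 to D3RA, a called change of at least 2-fold the other way from D3RA to D6RA, and less than 0.5 on the log2 scale between D6RA and D0. It found 317 genes, 128 raised and 189 lowered at D3RA, out of 2369 (16.1% of genes tested) and 2103 (14.3%) called at least 2-fold higher and lower there. From D3RA to D6RA, 17.1% of genes were called at least 2-fold higher and 11.8% at least 2-fold lower. The median of the raised genes was 1.57 at D3RA and -0.05 at D6RA, and of the lowered genes -1.52 and 0.02; the rule fixes both. The 3 comparisons share libraries, so these counts are descriptions. Day and set of libraries cannot be told apart for the step from D3RA to D6RA either. Of the 317 genes, 19 raised and 21 lowered were still called between D6RA and D0.

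Hapln1, which links hyaluronan and proteoglycans outside cells, stood at 0.923, 1.26 and 1.04 CPM in D0, at 68.3, 68.4 and 82.7 CPM in D3RA and at 1.32, 1.97 and 1.28 CPM in D6RA. Sp8, a zinc finger factor of limb and forebrain, went from 2.15, 1.57 and 2.08 CPM to 25.2, 22.8 and 26.9 CPM and back to 2.22, 1.80 and 1.88 CPM. With every library thinned to the smallest, Sp8 was called lower in D6RA than in D0, by a log2 difference of -0.85 (limma adjusted p = 0.0452), which is outside the 0.5 limit. Quantile normalization also gave a call, at -0.36 (adjusted p = 0.0374). Rcsd1 went from 0.772 CPM through 14.8 CPM to 1.06 CPM on average. Npr1, a natriuretic peptide receptor, was uneven in D0, at 1.95, 0.157 and 1.23 CPM, and stood at 11.9, 12.7 and 15.5 CPM in D3RA and at 0.530, 0.819 and 1.06 CPM in D6RA. Its place among the returned genes rests on the D0 libraries: the log2 difference between D6RA and D0 was -0.09 with all of them, -1.01 without D0 replicate 2 (limma adjusted p = 0.0300, called lower) and 0.53 without D0 replicate 1. For Rcsd1 it was 0.39, and 0.59 without D0 replicate 1. At day 6 in DMSO Hapln1, Sp8, Rcsd1 and Npr1 were high, with 103 ± 9.16, 17.7 ± 1.76, 27.2 ± 1.08 and 20.8 ± 2.51 CPM (SD, n = 3), in that order.

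In the other direction Kif26b, a kinesin-like protein, stood at 43.5, 45.6 and 53.1 CPM in D0, 1.82, 2.28 and 3.20 CPM in D3RA and 40.7, 44.7 and 40.7 CPM in D6RA. The log2 difference between D6RA and D0 was -0.17 with a 95% interval of -0.52 to 0.18. Pcsk1n, a neuroendocrine inhibitor of prohormone convertase, went from 14.3, 14.3 and 11.2 CPM through 2.0, 0.977 and 0.457 CPM to 12.5, 13.8 and 14.7 CPM. Nmnat2, an axon survival enzyme, went from 31.4, 30.0 and 27.9 CPM through 3.28, 3.91 and 4.57 CPM to 34.7, 34.0 and 35.6 CPM. The D6RA libraries lay above the D0 libraries by 0.22 on the log2 scale, which was not called (limma adjusted p = 0.249) but was called with D0 and D6RA fitted alone (0.0106) and with voom weights (0.0205). Pfkp, a phosphofructokinase, went from 87.0, 120 and 104 CPM through 11.3, 12.1 and 13.2 CPM to 82.6, 87.1 and 84.4 CPM, and was still called slightly lower than D0 (adjusted p = 0.0425). Nmnat2 and Pcsk1n were low at day 6 in DMSO, at 3.23 ± 0.447 and 0.877 ± 0.0763 CPM (SD, n = 3).

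D3RA replicates 2 and 3 stood apart from D3RA replicate 1, with 4365023 and 3549553 counts against 9823766, and with 39.5% and 45.7% of them in the 4 abundant entries against 1.97%. Without these 2 libraries, an alternative chosen after seeing the data, 155 raised and 192 lowered genes met the rule, of which 109 and 152 were among the 128 and 189. With every library thinned to the smallest, 126 and 174 genes met it, 77 and 119 of them shared.

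**Figure D4:**
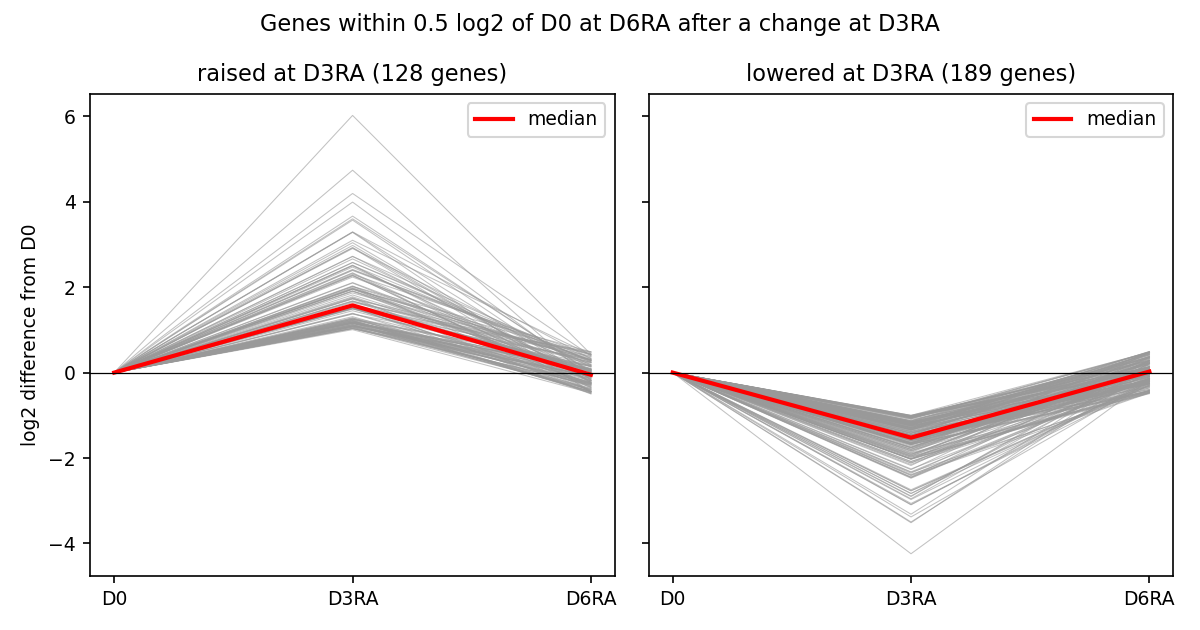
Log2 difference from D0 at D3RA and D6RA for each gene that met the rule, raised at D3RA on the left (128 genes) and lowered on the right (189 genes), with the median in red. The rule itself brings every line to within 0.5 of 0 at D6RA, and the highest rise at D3RA is that of Hapln1 (6.02).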

How the data were processed

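RNA of 15 libraries in 5 groups was measured by sequencing of ribosome-depleted total RNA (75 base single reads, NextSeq 500, per the labels' protocols). The deposited table gives log2 expression values that the authors made, 1 per gene and library, for 14717 Ensembl genes. The submitters' processing notes list STAR 2.6.0c, featureCounts, edgeR, limma and the mouse build mm9, without roles, and whether counting used strand is not given in the sources used here. The values were log2 of a count plus 0.5 times a constant per library: 100% of values (rounded) came out within 0.05 of a whole count. CPM were these recovered counts over scaled library sizes, whose ratios are those of the deposited values and whose geometric mean is that of the non-mitochondrial counts. Symbols were matched for 14228 IDs, and 489 stayed unnamed.

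Tests were limma 3.58.1 with a variance trend (R 4.3.3) on the log2 values of all 15 libraries, with 1 coefficient per group, and Benjamini-Hochberg adjustment over all 14717 genes. A gene was called at an adjusted p under 0.05, and the 11 mitochondrial genes were left out of counts. A filter of 1 CPM in 3 libraries removed 0 genes. At 0 counts the deposited value lay at 2.59 to 3.33 in D0 and 1.00 to 1.39 in D6RA, so linear folds of genes at 0 are given against 3 counts over the group. Log2 fold changes of such genes, as for Hoxb6 and Mir291b, are those of the deposited values and depend on the value at 0 counts. Nothing says whether replicates are separate cultures, so p-values refer to the spread among these libraries alone, possibly a technical one. On simulated counts for D6RA with D0, 68%, 84%, 96% and 100% of genes changed 1.5-, 2-, 4- and 8-fold were recovered (50 genes each of 14717), and 0 of 14517 unchanged genes were called. The simulation changed only these few genes, gave all genes 1 dispersion (0.0041) and held no difference between sets of libraries. In the data 79.9% of genes were called, so these rates do not carry over to the calls above.

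The members and the 22 gene lists were chosen with earlier results of these data known. Named genes were a panel of 19, the 6 highest and 6 lowest fold changes at 10 CPM or more without overlap (predicted genes and small RNAs left out), the 2 highest and 2 lowest called members of each list at 1 CPM or more, and 4 genes of each direction back at the D0 level. Other list members are examples chosen after their values were seen. Alternatives covered scaling, filters, pseudocount, variance model, samples in the fit, pairing, depth and each replicate left out. The 18 chromatin samples were not used here.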

Additional observations from a re-analysis of the deposited data

Results flagged for a closer look

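Mitochondrial genes, which are outside the comparison, took 41.55% of all counts in the lowest and 42.62% in the highest D6RA library, while all 3 D0 libraries had 0 counts for all 11 of them. The D3RA libraries also had 0 mitochondrial counts, and the D6DMSO libraries had 49.8% to 55.8%. Genes that every cell uses are among them, so a value of 0 in D0 is a listed value and no level is read from it.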

How the results depend on the processing

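The 4 counts of called genes stayed within 1.5 times under every alternative run: 5238 to 6456 higher, 4749 to 6410 lower, and at 2-fold or more 3038 to 3735 higher and 2293 to 3442 lower. Quantile normalization turned the majority, with 5238 higher against 6410 lower. Leaving out each D0 or D6RA library in turn gave 5836 to 5925 higher and 5347 to 5417 lower. Genes back at the D0 level numbered 102 to 155 raised and 138 to 217 lowered. Same-numbered D0 and D6RA libraries did not deviate together (correlations 0.010, -0.020 and 0.030 across 9925 genes). Such values cannot show whether same-numbered libraries came from the same cultures. With the replicate block 6150 genes were higher and 5643 lower. A pseudocount in proportion to library size, which removes the depth dependence of the value at 0 counts, gave 6122 higher and 5535 lower.

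Among the lists, pluripotency had 1 member called higher in place of 0 with voom weights and with the D0 and D6RA libraries alone. With the filter of 5 CPM in 3 libraries, which left 12552 genes, members called lower were 0 neurogenic, 1 cytoskeletal and 0 synaptic. With the D0 and D6RA libraries alone, 3 synaptic genes were lower. Thinning left 0 cytoskeletal, 0 axon guidance and 3 crest and glia genes lower. Leaving out single replicates left 0 axon guidance genes lower at the least and 1 at the most.

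Among the named genes, the sign of a difference near 0 turned in 4. Lmnb1 gave 0.0424 (quantile), 0.0277 (thinned), 0.0128 (without D0 replicate 1), 0.0216 and 0.0059 (without D6RA replicate 1 and 3), with -0.0344 as its lowest value without a replicate. Pcsk1n gave -0.2516 (quantile), -0.2559 (thinned), -0.0723 (without D0 replicate 3) and -0.0055 (without D6RA replicate 3), against 0.1082 without D6RA replicate 1. Npr1 gave 0.5282 and 0.2043 (without D0 replicate 1 and 3) and 0.1737 (without D6RA replicate 1), against -1.0137 without D0 replicate 2. Sp8 gave 0.0282 (proportional pseudocount), 0.0764 and 0.0505 (without D0 replicate 1 and 3), and 0.0562 and 0.0287 (without D6RA replicate 2 and 3), against -0.1323 without D0 replicate 2, -0.3624 (quantile) and -0.8543 (thinned), and was called lower in the last 2. Calls were also gained by Npr1 in 1 alternative (without D0 replicate 2), by Nmnat2 in 2 and by Sox2 in 1 (D0 and D6RA alone). Calls were lost by Pfkp in 7 of 17 alternatives, Sema3c in 3, and Nefh and Prph in 1 each. The cause was not tested.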

Other observations

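Genes of dorsal spinal interneurons were among the rises outside the lists, and are given here as examples chosen after their values were seen. Lbx1, a factor of dorsal interneurons, had 1 count in D0 and 44.6, 51.2 and 50.4 CPM in D6RA. Pax2 and Prdm13, factors of inhibitory dorsal neurons, had 1 and 3 counts in D0 and stood at 47.0, 55.6 and 52.5 CPM and at 60.3, 67.0 and 70.4 CPM. Slc6a5, the glycine transporter of inhibitory neurons, rose from 1 count to a mean of 51.5 CPM, and the neuropeptide gene Sst had 0 counts in D0 and 37.8, 42.2 and 42.3 CPM in D6RA, at least 363-fold higher. At day 6 in DMSO these 5 genes lay at 0.306 ± 0.221, 2.79 ± 0.441, 0.102 ± 0.11, 0.116 ± 0.127 and 0.516 ± 0.142 CPM (SD, n = 3).

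Of 14 microRNA hairpin genes in the table, 9 were called lower, 0 higher and 5 not called, against 38.3% of all genes lower and 41.6% higher. The levels of the 13 with a mature sequence were low, at 13 to 79 counts over the D0 group. The hairpin gene without a mature sequence was among the 9 called lower, and its level is not given here. Mir134 was uneven in D0, at 1.44, 0.157 and 1.13 CPM. Those lower included Mirlet7d, Mir134, Mir453, Mir1983 and Mir5136, so the falls were not limited to stem cell families. The 3 given in full belong to families known from embryonic stem cells and were chosen after their values were seen. Reads on the hairpin gene are not the mature microRNA. Mir291b had 60 counts over the D0 group and 0 over D6RA (log2 fold change -6.92, SE 0.61, limma adjusted p = 1.86e-08), Mir302a 34 and 5 counts (adjusted p = 5.81e-05), and Mir302b 25 and 8 counts (adjusted p = 0.000189). RefSeq gives these mature 3′ arms, shown with the seed (bases 2 to 8) in capitals because their seeds resemble each other.
miR-291b-3p: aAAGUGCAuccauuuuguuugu
miR-302b-3p: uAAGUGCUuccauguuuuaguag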
